A study of Arabidopsis thaliana with 16 samples.

Results

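A set of 33 Arabidopsis thaliana genes was followed whose transcripts were abundant in the root hair zone, scarce further down the root, and within a narrow range of their unsalted level in that zone after 1 h of salt. The members were chosen from the arrays themselves. On standard medium the mean signal in zone 4, the most mature part sampled, had to reach 800 and to be at least 10 times the mean of each of zones 1, 2 and 3, with means floored at 16. The zone 4 change with NaCl had to lie between -0.8 and 0.8 in log2(signal + 16), so changes of up to 1.74-fold on that scale were admitted and "unmoved" means only this. Of 22810 probe sets, 115 met the zone 4 levels and 86 of these also met the salt limit. Of the 86, 45 have no gene listed in the probe table used here and 3 name several genes. The remaining 38 name 1 gene each, and leaving out 5 class III peroxidases gave the 33 members, each a separate gene on 1 probe set.

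The study compared roots of Columbia seedlings, 5 days old, that had been moved for 1 h to fresh standard medium or to the same medium with 140 mM NaCl. Each root was then cut lengthwise into the outermost tip of about 150 µm (zone 1), a second piece of some 200 µm that reached roughly the end of the meristem (zone 2), a piece of 200 to 300 µm up to where hairs first emerge (zone 3), and about 1 mm above that (zone 4). Each of the 8 combinations of zone and medium had 2 Affymetrix ATH1 arrays, 16 in all, from RNA of about 15 pooled sections per array. The plants carried no transgene or mutation per the labels, and every group shared the same age and growth medium before transfer.

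Cells of the root tip divide, then elongate, and then mature as they are left behind by the growing tip. In the hair zone, epidermal cells put out tubular hairs that take up water and ions, the endodermis around the vascular tissue builds a waxy barrier of suberin, and xylem vessels form lignified walls. Genes for lipid transfer proteins, esterases, wall proteins and small defence proteins are among those known to be active in such maturing tissue. Salt at first draws water from root cells and slows elongation, and it acts in part through abscisic acid, the hormone of water stress. A whole-zone sample mixes all cell types, so fewer cells of a type and less RNA per cell cannot be told apart.

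The name of the set refers to the zone, not to root hair cells. Of 23 root hair genes listed for comparison, only 4 had a named probe set, and none of these was a member. EXPA7, a hair-specific expansin that loosens the wall, had standard signals of 2181 and 2016 in zone 3 and 2506 and 2838 in zone 4. EXPA18, its close relative, had 1112 and 1603 in zone 3 and 4065 and 3839 in zone 4. Both were thus already high one zone earlier than the rule allows. In zone 4 all 4 hair genes fell under NaCl, with a median log2 change of -1.42, where 5.5% of all tested probe sets rose and 6.56% fell. XTH26, for a wall xyloglucan enzyme of hairs, was the only one of them low in zone 3, at 3.54 against 168 in zone 4, and it changed there by -1.42 (SE 0.28, adjusted p = 0.00272) in the limma fit over all probe sets. A suberin list of 14 genes had 1 named probe set, for the GDSL-type lipase gene AT2G23540, which met the zone 4 levels but had 2474 and 4483 there on standard medium and 6421 and 6721 under NaCl, and so lay outside the salt limit. Of 8 Casparian strip genes only the receptor kinase gene SGN3 (GSO1) was measured, at 462 in standard zone 3 and 1104 in zone 4, and it rose in zone 3 (log2 change 1.00, SE 0.23, adjusted p = 0.00388). Of the cortex genes AT1G09750 and CO2, AT1G09750 fell in zone 3 (log2 change -1.37, SE 0.28, adjusted p = 0.00173) and CO2 did not pass there. The lists for xylem, phloem, nutrient transport, dividing cells, root cap and non-hair epidermis had no probe set naming 1 gene, so the cell types behind the 33 genes were not resolved.

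The 2 arrays of a group correlated at 0.9787 to 0.9855 across tested probe sets, which are not independent replicates. All 16 arrays carry a common scaling, and precision is limited by how few arrays there are. The salt treatment itself was visible in the abscisic acid and dehydration list, where 3 of 10 genes had a named probe set: LEA4-5 and LTI30 rose in every zone and COR15A was too low to be tested. NaCl zone 3 arrays correlated with standard zone 4 arrays at 0.8721 on average, against 0.8191 for standard zone 3 arrays. With the standard arrays of their own zone, the NaCl zone 3 arrays correlated more closely, at 0.9299.

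The values in this paragraph chose the members and carry no test. Standard zone 4 means ran from 844 to 9165, with a median of 1838. The gap to the next highest zone ran from 10.6-fold to 144-fold, with a median of 18.4. AT2G38870, of the potato type I family of serine protease inhibitors, had the highest level, with standard zone 4 signals of 8883 and 9446 and NaCl signals of 8596 and 10374. It was also the member with the most signal at the tip, at 549 and 445 in standard zone 1. AT2G21100, of the dirigent family that guides lignan and lignin coupling, followed with 5132 and 4703 on standard medium and 6438 and 6253 under NaCl. AT1G56320, for which no role is given here, had 4859 and 4459 and then 6720.3 and 6812. The widest gaps belonged to GDSL-type lipase genes, encoding esterases of surface lipids: AT3G50400 at 144-fold and AT1G74460 at 139-fold. The next were AT5G12420, of the wax ester synthase family, at 96.4-fold and AT1G65500 at 58.4-fold.

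**Figure D1:**
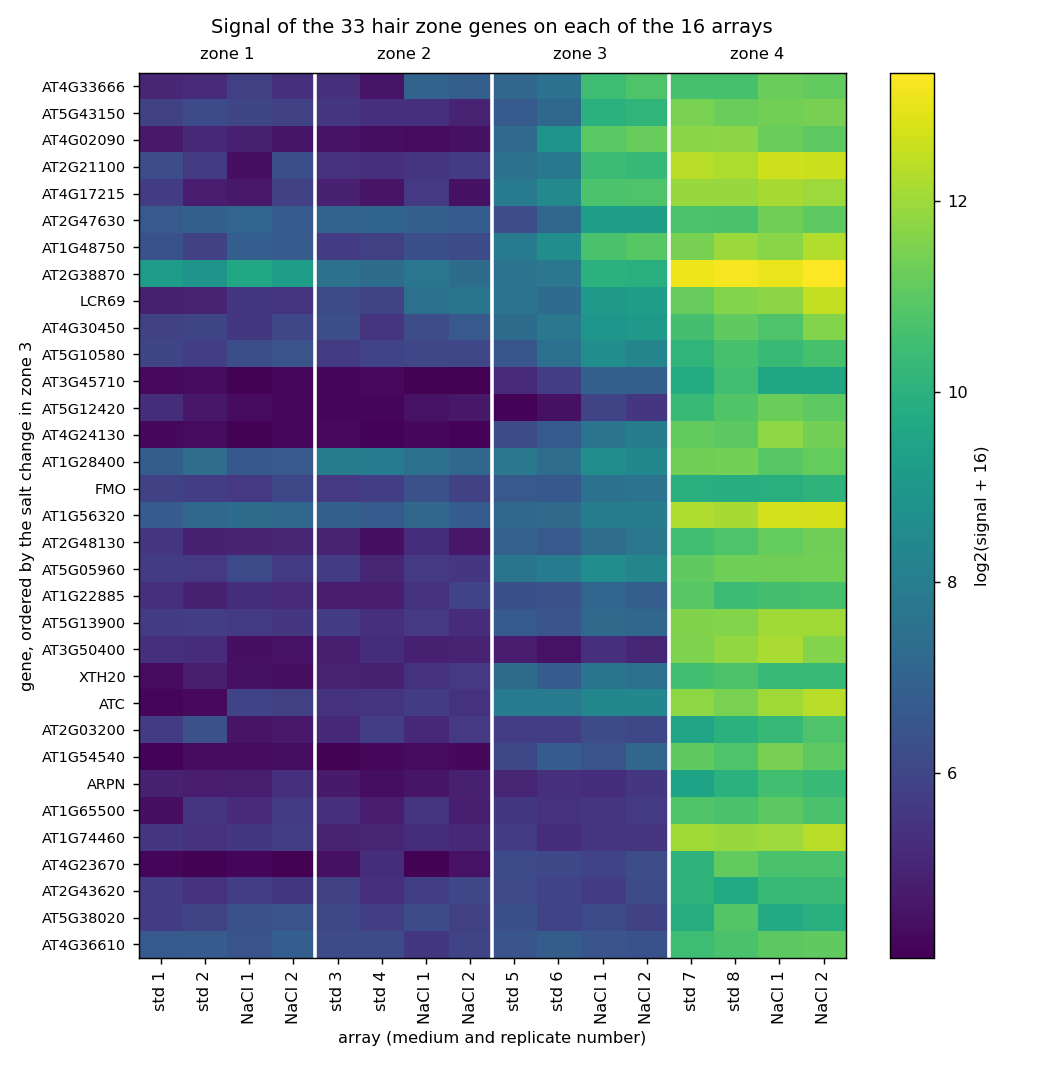
Signal of each of the 33 genes (rows, ordered by the salt change in zone 3) on each of the 16 arrays (columns, grouped by zone, std for standard medium), as log2(signal + 16) on the colour scale. All 33 rows are bright in the 4 zone 4 columns, as the rule fixes, and the upper rows brighten from standard to NaCl in zone 3, with AT4G33666 going from means of 145 to 1573.

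Within zone 4 the salt change of the members had a median of 0.27 on the log2 scale and ran from -0.59 for AT3G45710, of the NRT1/PTR transporter family, to 0.80 for the aspartyl protease family gene AT2G03200. Both NaCl arrays lay above both standard arrays for 17 members and below them for 4, and the arrays overlapped for 12. The matching shares over all tested probe sets were not counted in zone 4, so these counts are only a description. In all tested probe sets the median zone 4 change was -0.02. The set is therefore not centred on 0 in zone 4, and nothing is read from this contrast, which the rule used. Just inside the level limit of 800 stood ARPN (plantacyanin, a small copper protein) at 844, AT2G03200 at 845, FMO at 919.6 and AT2G43620 at 962, and just outside AT2G16005 at 791, AT1G49960 at 787, AT5G38030 at 744 and AT2G24580 at 634. Nearest to the 10-fold limit were AT4G30450 at 10.6, AT1G48750 at 10.9, AT4G33666 at 10.9 and FMO at 11.0 inside, and AT1G30750 at 9.26, AT4G28940 at 8.99, AT3G13610 at 8.63 and AT2G41380 at 8.36 outside. The nearest genes on the 2 sides of these limits thus lay close together. At the upper salt limit AT2G03200 (0.80), LCR69 (0.72), ARPN (0.70) and AT2G48130 (0.58) were inside, and AT2G37750 (0.84), AT4G38080 (0.84), AT5G09480 (0.86) and AT3G27270 (0.86) outside. At the lower one AT3G45710 (-0.59), AT4G02090 (-0.57), AT5G38020 (-0.55) and AT1G28400 (-0.32) were inside, and AT3G25930 (-0.86), AT1G51830 (-0.998), AT5G65530 (-1.45) and AT5G47980 (-1.51) outside. The zone 4 standard arrays disagreed most for AT4G23670, of the major latex protein family, at 1076 and 2201, and for AT5G38020, of a methyltransferase family acting on small carboxylic acids, at 909.6 and 1827. For these genes the replicate arrays lay further apart than the salt limit itself.

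The step between zones under salt was taken first, within the NaCl arrays of zones 1, 2 and 3, which the rule did not use. NaCl zone 3 exceeded NaCl zone 2 for 28 of the 33 genes, while 27% of all tested probe sets were higher and 30% lower (limma over 17099 probe sets, adjusted p under 0.05). It did so by more than 2-fold for 25 members, against 17.5% of all tested probe sets. No member was lower, also at an unadjusted p under 0.05, where 32.2% of tested probe sets were. However, NaCl zone 2 means lay below the filter level for 21 of the 33, so a lower zone 3 could hardly be measured for these. The absence of falls is therefore no finding about the members. The 28 include AT5G12420 and ARPN, whose NaCl means lie below the filter level of 41.4 in both zones and which passed the filter through zone 4, and 26 remain without them. The median difference was 2.05 in log2 against -0.05 over all tested probe sets. The 5 that did not pass were AT1G74460, AT3G50400, AT1G65500, AT5G38020 and AT2G43620, whose NaCl zone 3 means lay between 20.2 and 48.5. On standard medium the median mean signal of the members went from 26.9 in zone 2 to 91.7 in zone 3, and under NaCl from 31.1 to 174. The step was not tested on standard medium, so the 28 are no measure of a salt effect. Of the 28, 7 did not pass for a zone 3 salt change. Between NaCl zones 1 and 2, by contrast, 5 members were higher in zone 2 (16.6% of all tested probe sets were) and 3 lower (23.7%), shares no larger than the background. Of those 5, XTH20 and AT2G03200 were below the filter level in both zones.

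The salt change itself sets these NaCl arrays against standard arrays that the rule used, since it kept the standard means of zones 1, 2 and 3 low. A standard value that was low by chance favours both membership and a rise, and its part was not tested. The counts, folds and p-values of salt changes below therefore describe the members and are no independent test of the set. In zone 3, 21 of the 33 genes rose and none fell by the limma fit, where 12.6% of all tested probe sets rose and 13.2% fell. The median change of the members was 0.75 on the log2 scale against -0.01 over all tested probe sets. A rise of more than 2-fold passed for 14 members and for 6.05% of tested probe sets. No member had a decrease at an unadjusted p under 0.05, which 18.6% of tested probe sets had. Both NaCl arrays lay above both standard arrays for 25 of the 33, against 30.4% of all tested probe sets. One of the 21, AT5G12420, lay below the filter level on both media, and 20 remain without it. Of the 4 hair genes, EXPA7 and EXPA18 also rose in zone 3, EXPA7 to 4586 and 4972, and the part of hair cells in the members' rise was not tested.

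**Figure D2:**
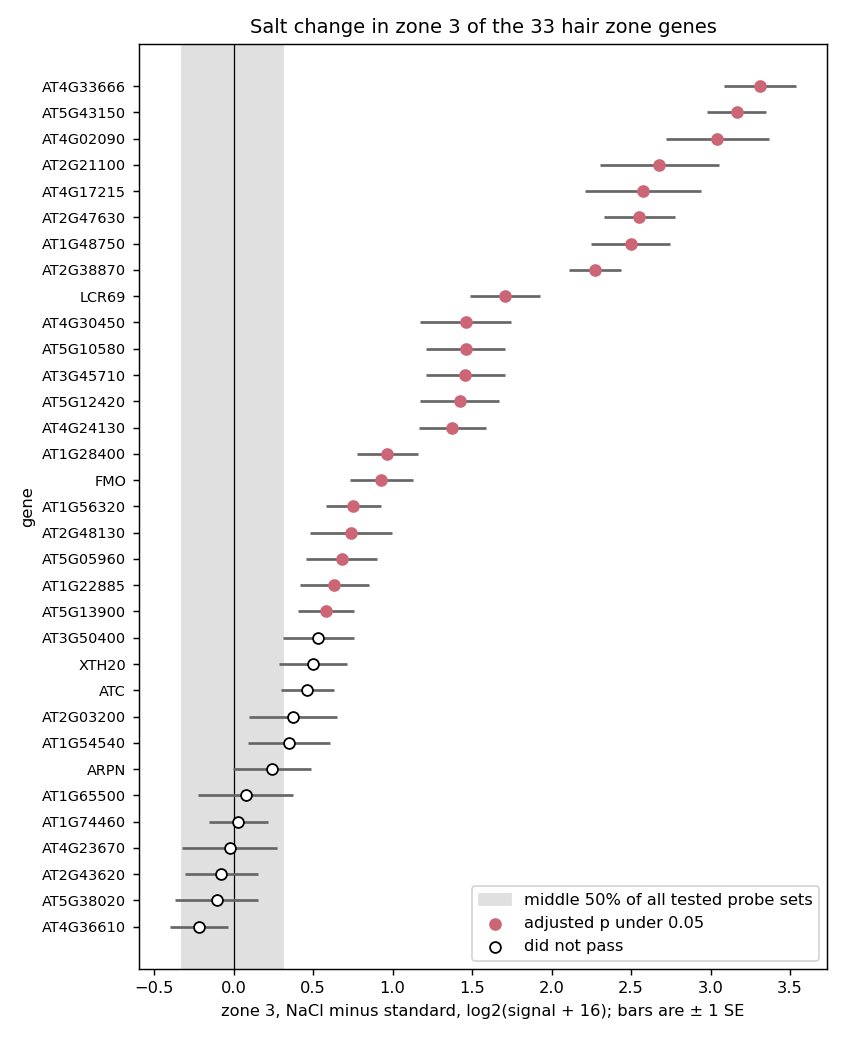
Salt change in zone 3 for each of the 33 genes as the NaCl minus standard difference in log2(signal + 16), with bars of ± 1 SE from the limma fit, 2 arrays per group. Filled points are the 21 genes with an adjusted p under 0.05, all to the right of 0, and the grey band spans the middle 50% of all tested probe sets.

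The 3 largest rises were in genes for which no role is given here. AT4G33666 had zone 3 signals of 123 and 166 on standard medium and 1403 and 1743 under NaCl, a log2 change of 3.31 (SE 0.23, adjusted p = 2.66e-08). Its NaCl zone 3 mean, 1573 ± 241 (SD, n = 2), was 99.4% of its standard zone 4 mean of 1583, with zone 4 signals of 1585 and 1579.7 on standard medium and 2392 and 2187 under NaCl. AT4G33666 thus had one zone earlier, under salt, about the signal it had in the unsalted hair zone. AT4G02090 went from 136 and 432 to 1967 and 2309 in zone 3, a change of 3.04 (SE 0.32, adjusted p = 3.1e-06), and reached 64.6% of the standard zone 4 mean. Its standard zone 3 arrays differed more than 3-fold from each other, yet both stayed well under the NaCl arrays. In zone 4 it had 3272 and 3346 on standard medium and 2372 and 2094 under NaCl, so that its NaCl arrays of zones 3 and 4 overlapped. AT5G43150 had 86.4 and 126 and then 1010.1 and 1119 in zone 3, and 2861 and 2379.9 against 2633 and 2743 in zone 4. In zones 1 and 2 the signals of AT5G43150 stayed at 15.8 to 54.5 over the 8 arrays, and those of AT4G02090 at 4.33 to 17.9. Of the 9 members without a given role, 8 rose in zone 3, where 12.6% of all tested probe sets did, and AT1G65500 did not pass. The shares of such groups of members were not compared by a test. AT1G65500 had 31.6 and 26.8 on standard medium and 29.6 and 33.7 under NaCl in zone 3, against 1793 and 1619 and then 2048 and 1611 in zone 4, so it stayed a zone 4 transcript under salt. AT1G28400 went from 202 and 149 to 388 and 324 in zone 3, with 2576 and 2716 in standard zone 4 and 1961 and 2276 in NaCl zone 4, and AT1G56320 from 129 and 138 to 239.9 and 231 in zone 3. The log2 changes in zone 3 were 1.46 for AT5G10580, 1.37 for AT4G24130, 0.97 for AT1G28400, 0.75 for AT1G56320 and 0.63 for AT1G22885.

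Of the 5 cell wall genes 3 rose in zone 3, where 12.6% of all tested probe sets did, and 2 did not pass. AT2G21100, of the dirigent family, had 171 and 210.0 in standard zone 3 and 1358 and 1240.1 under NaCl, a change of 2.68 (SE 0.37, adjusted p = 5e-05). AT4G17215, of the Ole e 1 family of secreted wall-associated proteins, went from 229 and 326 to 1648 and 1771 (log2 change 2.57, SE 0.37, adjusted p = 5.98e-05), with 3792 and 3843 in standard zone 4 and 4469 and 4061 in NaCl zone 4. The groups did not overlap in zone 3 for either gene. AT4G30450, for a glycine-rich protein, rose by 1.46 (SE 0.29, adjusted p = 0.00111). XTH20, for a wall enzyme that remodels xyloglucan, had 148 and 93.7 on standard medium and 185 and 163 under NaCl and did not pass (log2 change 0.50, SE 0.21, adjusted p = 0.0968), although it did without standard replicate 5 (adjusted p = 0.0313). ARPN stayed near background in zone 3, at 16.5 and 24.2 on standard medium and 23.2 and 30.6 under NaCl.

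In surface lipid families, 6 of the 9 genes rose in zone 3, against 12.6% of all tested probe sets, and 3 did not pass. AT1G48750, a lipid transfer family gene whose kind of protein carries lipids through the wall, rose from 229 and 388 to 1619 and 1917 in zone 3 (log2 change 2.50, SE 0.25, adjusted p = 1.46e-06), 52.7% of its standard zone 4 mean. In zone 4 AT1G48750 had 2771 and 3941 on standard medium and, under NaCl, 3259 and 4905, groups that overlapped. AT2G47630, of the monoacylglycerol lipase family, rose from 60.4 and 123 to 598 and 579 (log2 change 2.55, SE 0.22, adjusted p = 4.1e-07). AT5G12420, of the wax ester synthase family, went from 2.01 and 6.51 to 46.6 and 30.5 (log2 change 1.42, SE 0.25, adjusted p = 0.000416). Its means lie below the filter level on both media, and its standard signals below the pseudocount of 16, so the size depends on that constant, at 3.03 with a pseudocount of 1 and 0.58 with 64. Smaller rises were found for the other lipid transfer family members: 0.74 for AT2G48130 (SE 0.26, adjusted p = 0.0435), 0.68 for AT5G05960 (SE 0.22, adjusted p = 0.0319) and 0.58 for AT5G13900 (SE 0.17, adjusted p = 0.0203). None of these smaller calls held in every alternative. AT5G13900 went from 87.6 and 76.1 to 138 and 123 in zone 3, far under its 3066 and 3151 in standard zone 4 and 4115 and 4108 in NaCl zone 4.

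Neither GDSL-type lipase gene passed in zone 3. AT1G74460 had 34.5 and 22.7 on standard medium and 29.7 and 28.5 under NaCl in zone 3, against 4133 and 3819 and then 4055 and 5206 in zone 4. Over the 8 arrays of zones 1 and 2 it had 16.1 to 38.2, a range that takes in its zone 3 signals. AT3G50400 had 11.0 and 6.89 on standard medium and 24.3 and 16.2 under NaCl in zone 3 (log2 change 0.53, SE 0.22, adjusted p = 0.0926), and 2985 and 3607 and then 4619.8 and 3124 in zone 4. It passed with a pseudocount of 1 (adjusted p = 0.0314). The NaCl zone 3 mean was 0.732% of the standard zone 4 mean for AT1G74460 and 0.614% for AT3G50400. AT4G36610, for an alpha/beta hydrolase, had 76.0 and 95.7 on standard medium and 74.8 and 67.8 under NaCl, with 1394 and 1636 and then 2026 and 2164 in zone 4. It had the lowest zone 3 change of the set at -0.22 (SE 0.18, adjusted p = 0.44).

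**Figure D3:**
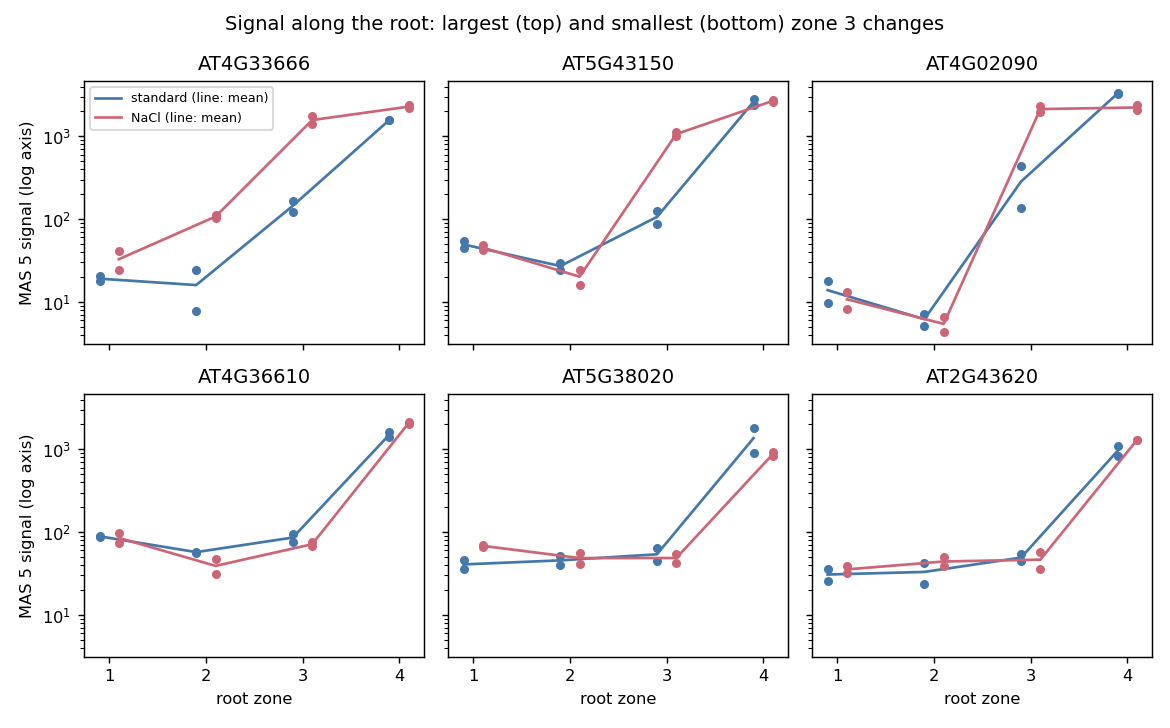
MAS 5 signal (log axis) along root zones 1 to 4 for the 3 genes with the largest zone 3 change (top) and the 3 with the smallest (bottom), with a point per array, 2 per group, and lines through the means. In the top panels the NaCl line lies well above the standard line in zone 3, at 1573 against 145 for AT4G33666. The lines of AT4G33666 already part in zone 2, at 107 against 15.9. In the bottom panels both lines stay below a signal of 100 until zone 4.

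Of the 5 genes grouped here as defence-related by their family, 2 rose and 3 did not pass, and a defence role was not tested. Among all tested probe sets 12.6% rose in zone 3. AT2G38870, the protease inhibitor gene, rose in zone 3 from 177 and 199.5 to 1003 and 939 (log2 change 2.27, SE 0.16, adjusted p = 5.11e-08). LCR69 (PDF2.2), a plant defensin gene, rose from 177 and 144 to 513 and 606 (log2 change 1.71, SE 0.22, adjusted p = 2.29e-05), with 2300.4 and 3139 in standard zone 4 and 3379 and 5793 in NaCl zone 4. The chitinase family gene AT2G43620 had 53.8 and 44.3 on standard medium and 35.8 and 56.9 under NaCl in zone 3, against 1093 and 830.5 and then 1288 and 1310.1 in zone 4. AT4G23670 had 54.8 and 51.7 and then 45.2 and 59.9 in zone 3, and 1603 and 1608 in NaCl zone 4. For both genes the zone 3 groups overlapped. AT2G03200 had 38.2 and 37.7 on standard medium and 55.9 and 52.0 under NaCl, close to the level where signals were filtered.

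Among the other 5 genes with a known family, 2 rose in zone 3, where 12.6% of all tested probe sets did. AT3G45710, of the NRT1/PTR transporter family, rose in zone 3 from 19.8 and 37.2 to 103 and 105 (log2 change 1.46, SE 0.25, adjusted p = 0.000342), while its zone 4 signals were 852 and 1453 on standard medium and 728 and 743 under NaCl. FMO, for a flavin monooxygenase, rose by 0.93 (SE 0.20, adjusted p = 0.00205), from 84.1 and 82.5 to 169 and 177. ATC (Arabidopsis thaliana centroradialis), a relative of the flowering inhibitor TFL1, had 218 and 229.6 on standard medium and 308 and 322 under NaCl in zone 3, and 3452 and 2824 and then 4146 and 5138 in zone 4. Its zone 3 groups did not overlap, but the change of 0.46 (SE 0.17, adjusted p = 0.051) missed the threshold. AT1G54540, of a hydroxyproline-rich relative family of the late embryogenesis abundant proteins, had 51.8 and 94.0 on standard medium and 70.8 and 123 under NaCl. AT5G38020 had 63.4 and 44.3 and then 54.2 and 42.8 in zone 3, and 827 and 929.8 in NaCl zone 4. For both genes the zone 3 groups overlapped.

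The zone 3 changes are given by standard zone 3 level as a description only, since that level is one side of the change and the pseudocount compresses changes that start low. Of the 26 members whose standard zone 3 mean reached the filter level of 41.4, 19 rose and the median change was 0.95. Of the 7 below it, AT5G12420 and AT3G45710 rose and the median was 0.37. Among all tested probe sets 12.6% rose. Standard and NaCl zone 3 means ranked alike over the 33 genes (Spearman 0.897, a description over genes measured on the same arrays, with no test). Under NaCl the zone 3 mean ran from 0.614% to 99.4% of the standard zone 4 mean, with a median of 10.1%. The zone 3 increase itself, as a share of the standard zone 4 mean, was 90.3% for AT4G33666, 56.0% for AT4G02090, 8.54% for AT2G38870 and 0.0123% for AT1G74460. These increases were thus unequal shares of the hair zone level.

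The members' rise was also set against the salt change of all tested probe sets in zone 3. The NaCl arrays of zone 3 correlated more with standard zone 4 than its standard arrays did, but more still with standard zone 3. Over all tested probe sets the zone 3 salt change had a slope of 0.343 on the standard difference between zones 4 and 3, which share the standard zone 3 arrays. With the zone 3 reference moved by that slope, an alternative added once the data had been seen, 7 members rose and 16 fell, and the median was -0.58. Of all tested probe sets, 10% rose and about 12% fell with the reference moved in this way. The members have large zone 4 differences because the rule chose them so, which makes this reference high for them by construction. The 7 that rose over this reference were AT4G33666 (2.17), AT4G02090 (1.78), AT5G43150 (1.64), AT1G48750 (1.33), AT4G17215 (1.30), AT2G47630 (1.18) and, with the smallest excess, AT2G21100. The reference is built from standard arrays of zones 3 and 4 that the rule used, so the list describes members and is no test of them. A zone 3 cut that fell at a more mature position under salt and higher transcript levels at the same position cannot be told apart here.

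In zones 1 and 2 most members were low and few changed. Over the 8 arrays of these zones AT2G38870 lay between 145 and 764, AT1G28400 between 81.2 and 237, AT1G56320 between 88.5 and 146 and AT2G21100 between 5.68 and 63.2. AT4G17215 lay between 6.17 and 41.1, AT1G48750 between 36.2 and 97.0, AT5G13900 between 22.1 and 38.3 and AT2G47630 between 85.9 and 119.8. Among the members with the smallest zone 3 changes, AT4G36610 lay between 31.1 and 97.1, AT5G38020 between 35.4 and 70.4, AT2G43620 between 23.8 and 49.6, AT4G23670 between 0.725 and 23.3 and AT1G65500 between 5.95 and 33.3. In zone 2, 3 rose (6.19% of all tested probe sets did) and 1 fell (5.2%). AT4G33666 had 24.0 and 7.79 on standard medium and 112 and 102 under NaCl, a change of 2.00 (SE 0.23, adjusted p = 2.07e-05). LCR69 went from 55.4 and 46.1 to 159 and 189 (log2 change 1.51, SE 0.22, adjusted p = 0.000229), so the defensin gene rose in zones 2 and 3. In zone 1 its change of 0.61 did not pass (adjusted p = 0.095). AT1G22885 rose by 0.89 (SE 0.22, adjusted p = 0.0125), between means of 11.6 and 36.2 that both lie below the filter level. AT1G28400 fell from 237 and 223 to 163 and 127 (log2 change -0.62, SE 0.19, adjusted p = 0.0487), a call that, of the 16 fits with an array left out, was kept only in those without a standard array of zone 1 or zone 3.

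At the tip, zone 1, 1 member rose (5.01%) and 2 fell (4.63%). ATC went from 2.67 and 3.6, near background, to 45.3 and 40.6 (log2 change 1.62, SE 0.17, adjusted p = 8.24e-06), a signal still far below its zone 4 level. AT2G03200 fell from 35.2 and 65.7 to 7.65 and 10.2 (log2 change -1.38, SE 0.27, adjusted p = 0.00378) and AT3G50400 from 24.4 and 21.4 to 5.98 and 7.12 (log2 change -0.79, SE 0.22, adjusted p = 0.0347). Both AT3G50400 means lie below the filter level, so this fall is between signals near background. The 2 falls became 1 without zone 1 standard replicate 1 or NaCl replicate 1, and 0 without zone 1 standard replicate 2. Standard means lay below the filter level for 22 of the 33 members in zone 1 and for 25 in zone 2, so a fall could hardly be measured there.

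The zone 3 change was then set against the zone 2 change. This contrast too uses standard arrays of zones 2 and 3 that the rule held low, so it describes the members. It was larger in zone 3 for 12 members (3.83% of all tested probe sets) and smaller for none (3.82%), also at an unadjusted p under 0.05, where 11.6% of tested probe sets were smaller. The difference was largest for AT5G43150 at 3.42 (SE 0.26, adjusted p = 2.41e-06) and AT4G02090 at 3.09 (SE 0.46, adjusted p = 0.000787). For AT4G33666, which rose in both zones, it was 1.32 (SE 0.32, adjusted p = 0.0187). LCR69 rose in both with a difference of 0.20 (SE 0.31, adjusted p = 0.778). The count of 12 was 7 with a pseudocount of 1.

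The members were set beside 12 genes that met the same zone 4 levels but not the salt limit, 8 above it and 4 below, peroxidases again left out. In zone 3, 8 of the 12 rose (66.7%), as did 21 of the 33 members (63.6%), and none of either fell. The 8 include AT4G38080 and AT5G09480, below the filter level on both media, and 6 remain without them. The difference between these shares was not tested, and 12.6% of all tested probe sets rose and 13.2% fell. AT3G53980, of the lipid transfer family, rose in zone 3 by 4.46, and AT1G05340 by 4.43. AT5G65530 rose by 3.67 in zone 3 and changed by -1.45 in zone 4, and AT3G25930 rose by 2.53 with a zone 4 change of -0.86. AT4G38080, with the highest zone 4 level of the 12, had 1.52 and 2.79 on standard medium and 15.5 and 11.6 under NaCl in zone 3, all below the pseudocount and yet counted as a rise. Zone 3 changes ran from -0.22 to 3.31 for the members and from -0.39 to 4.46 for the 12 genes past the limit.

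**Figure D4:**
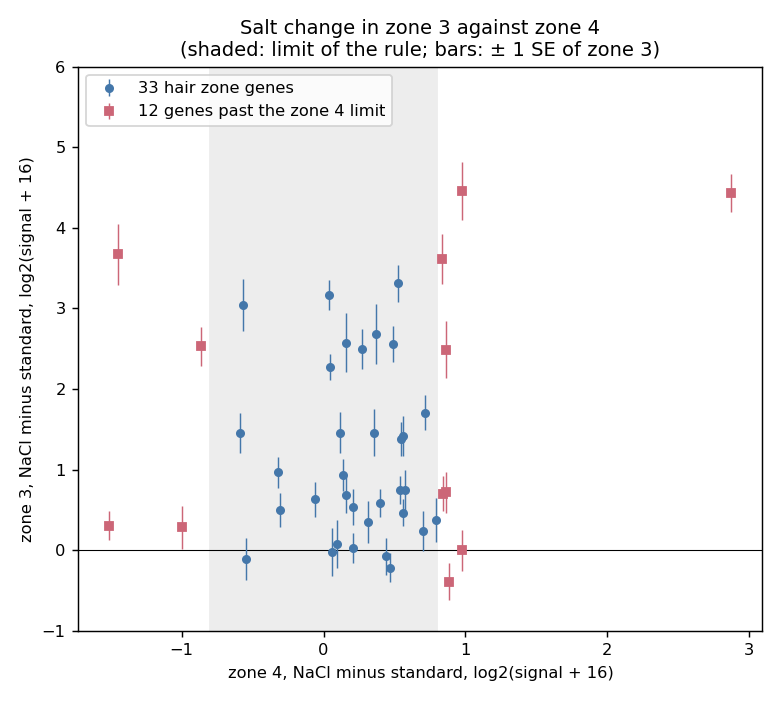
Salt change in zone 3 (y axis, bars ± 1 SE) against the salt change in zone 4 (x axis), both in log2(signal + 16), for the 33 members (circles) and the 12 genes that met the zone 4 levels but not the salt limit (squares). The shaded strip marks the limit of -0.8 to 0.8 that chose the members, within which zone 3 changes ran from -0.22 to 3.31.

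Some of the smaller zone 3 calls rested on single arrays or on the processing. AT5G13900 lost its call without standard replicate 6 (adjusted p = 0.124) or NaCl replicate 1 (0.125). AT5G05960 lost it without standard replicate 5 (0.189), standard replicate 6 (0.0576) or NaCl replicate 1 (0.231). AT2G48130 lost it without any one of the 8 arrays of zones 3 and 4, with adjusted p up to 0.263. AT1G22885 lost it without any one of the 4 arrays of zone 3 (up to 0.209) or of the NaCl arrays of zone 4 (0.0528 and 0.0529). The 17 other genes that rose kept their call without each of the 16 arrays in turn. With a pseudocount of 1 the calls were lost for AT5G05960 (adjusted p = 0.104), AT2G48130 (0.217) and AT1G22885 (0.084), and with no filter for the same genes (0.0529, 0.0779 and 0.0668). AT2G48130 also lost it with quantile normalization (0.0579) and with no variance trend (0.0605), and AT5G13900 with only the groups compared (0.0539). ATC, which did not pass, was called with a pseudocount of 64 (0.0363), a stricter filter (0.0411) and only the groups compared (0.049). It was also called without either NaCl array of zone 2, which left its log2 change at 0.46.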

How the data were processed

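Before hybridisation the RNA went through 2 rounds of amplification and was biotinylated, per the labels' protocols. The deposited values are MAS 5 signal intensities on a linear scale, 1 per probe set, per the submitters' processing notes; with 2% trimmed from either end, the array means were 250.02 to 250.03. MAS 5 settings and the genome build are not given in the sources used here. The signals were taken as log2(signal + 16) without further normalization. After 64 control probe sets were removed, those with at least 2 of 16 arrays above a signal of 41.4, the 40th percentile, were tested, 17099 in all. All 33 members passed this filter, through zone 4.

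A linear model with a mean per group was fitted to all 16 arrays with limma 3.58.1 in R 4.3.3 (lmFit, eBayes with a variance trend, 8 residual and 8.61 prior degrees of freedom). Tests were two-sided, with Benjamini-Hochberg adjustment over all 17099 probe sets and a threshold of 0.05. The procedure was tested on simulated data. Whether replicates were separate cultures is not in the labels; otherwise p-values measure only the spread between these samples. Dates and detection calls were not used here, so no batch was examined.

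Members, gene lists, family groups and contrasts were chosen with earlier results of these data known. The 73 class III peroxidase loci and the 95 list entries were written by locus. Genes were named through the probe table and a TAIR10.1 annotation, which gives 5 members a symbol; protein families of the other 28 are general background knowledge. Every member could be named; signals were given singly for the 12 with the highest zone 4 mean, those with the 6 largest or 6 smallest zone 3 changes and others described, one by one in zones 3 and 4 and mostly as a range in zones 1 and 2, and all 16 are drawn in the plot by array. Alternatives were quantile normalization, pseudocounts of 1 and 64, a filter at the 60th percentile or none, median centring, no variance trend, each array left out, only the groups compared, a replicate block, other limits of the rule and the moved zone 3 reference. Where leaving out an array left a lone array in a group, it was assumed to vary like those of other groups. No sequences were printed, since none were at hand.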

Additional observations from a re-analysis of the deposited data

Results flagged for a closer look

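For 12 members the salt change in zone 3 differed from the salt change in zone 2 by the interaction contrast of the limma fit, adjusted over all tested probe sets. Each was larger in zone 3. The rule kept the standard levels of both zones low to choose these genes, so the contrast is no independent test of them. In log2 units the difference was 3.42 for AT5G43150 (adjusted p = 2.41e-06), 3.09 for AT4G02090 (adjusted p = 0.000787), 2.75 for AT2G47630 (adjusted p = 8.81e-05), 2.45 for AT2G21100 (adjusted p = 0.00888), 2.27 for AT4G17215 (adjusted p = 0.0127), 2.20 for AT2G38870 (adjusted p = 4.22e-05). For the others it was 1.99 for AT1G48750 (adjusted p = 0.00255), 1.59 for AT3G45710 (adjusted p = 0.0107), 1.58 for AT1G28400 (adjusted p = 0.00235), 1.40 for AT4G24130 (adjusted p = 0.00826), 1.32 for AT4G33666 (adjusted p = 0.0187), 1.21 for AT5G10580 (adjusted p = 0.0454). AT4G33666 also rose in zone 2, and AT1G28400 fell there.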

How the results depend on the processing

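The count of members that rose in zone 3 was 17 to 22 with each array left out and 18 to 22 under the others, the moved reference apart. The counts for NaCl zone 3 over NaCl zone 2 were 25 to 28 and 26 to 28. With the moved zone 3 reference, which is high for these genes by construction, 7 rose and 16 fell, with the slope taken as known. Of all tested probe sets, 10% rose and about 12% fell with that reference. The signs that turned there were -0.72 for AT5G12420, -0.73 for XTH20, -1.13 for AT5G13900, -0.49 for AT5G05960, -1.89 for AT3G50400, -0.15 for AT3G45710, -0.21 for AT4G24130, -0.95 for AT1G56320, -2.20 for AT1G74460, -0.18 for FMO, -0.34 for AT1G28400, -0.58 for AT2G48130, -1.19 for AT1G54540, -1.73 for AT1G65500, -0.86 for AT1G22885, -0.81 for ATC, -0.99 for AT2G03200, -1.32 for ARPN. AT1G74460 changed sign, at -0.02, with quantile normalization. With an array left out, signs turned for 5 genes near 0: AT5G38020 (-0.305 to 0.0921), AT4G23670 (-0.178 to 0.132), AT1G74460 (-0.164 to 0.220), AT2G43620 (-0.324 to 0.169) and AT1G54540 (-0.0009 to 0.696). The larger zone 3 than zone 2 changes numbered 7 with a pseudocount of 1 (8 to 12 with an array left out). Falls in zone 2, 1 in the report and with a pseudocount of 64, median centring and the stricter filter, numbered 0 with a pseudocount of 1, quantile normalization, no filter, no variance trend or only the groups compared (0 to 1 with an array left out). Falls in zone 1 numbered 1 with a pseudocount of 64, no filter, only the groups compared or the replicate block (0 to 2 with an array left out), and rises there 2 with a pseudocount of 1 (1 to 2). Rises from NaCl zone 1 to zone 2 numbered 8 with median centring. The rule gave 68 members with a ratio of 5, 15 with a ratio of 20, 21 with a salt limit of 0.5, and 27 to 41 with a zone 4 array left out. For these counts the cause was not tested.

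The replicate block, fitted within the NaCl arrays and within zone 1, gave 28 rises for NaCl zone 3 over zone 2 and 6 rises and 3 falls for NaCl zone 2 over zone 1. Array deviations with the same replicate number correlated at -0.016 to 0.057 between groups, so no shared replicate effect was seen. This cannot tell whether samples with the same number came from the same culture. The zone 2 and zone 3 salt contrasts share no replicate numbers and could not be fitted with a block. Signals near background limit what can be seen in zones 1 and 2.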

Other observations

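The same zone 4 levels and salt limit were met by 45 probe sets with no gene listed in the probe table. Of these, 33 were higher under NaCl in zone 3 (73.3%) and none was lower by the limma fit, with a median log2 change of 1.30. Of all tested probe sets, 12.6% were higher and 13.2% lower. The 45 probe sets were counted with no name. Their levels in standard zone 3 were held low by the same rule, so the count is no independent test.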
